A study of Mus musculus with 2 samples.

Results

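The miR-29 family was examined in the gastrocnemius, the large muscle of the calf. Its members were chosen by gene name in the GENCODE M21 annotation of the mouse genome (mm10): Mir29a, Mir29b-1, Mir29b-2 and Mir29c, which are 4 of the 2202 microRNA genes that were counted. Small RNA below 30 bases had been sequenced from adult male mice of strain 5xFAD/CAST, aged 8 to 10 months, in 2 libraries that the labels number as biological replicates 1 and 2. 5xFAD is a transgenic line that carries human amyloid genes under a neuronal promoter, and CAST is an inbred strain derived from wild mice. Whether these animals had the transgene is not stated, and both tissue samples carry the same donor record. There was 1 group and no contrast of conditions. Nothing says that the tissue came from separate animals, so p-values here measure only how far these 2 samples differ, which may be technical. In bulk tissue, fewer cells of a type and less RNA per cell cannot be told apart.

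MicroRNAs are short RNAs cut from a hairpin, and the seed near the 5′ end of the mature strand pairs with the messages it represses. The miR-29 family is known for repressing messages of the extracellular matrix, among them collagens, elastin and fibrillin, and the DNA methyltransferases Dnmt3a and Dnmt3b. In skeletal muscle it is known for its part in myoblast differentiation and for its loss in fibrotic, dystrophic muscle. The genes are transcribed as a pair of clusters, each with a copy of miR-29b beside either miR-29a or miR-29c.

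The mature 3p strands are shown because their differences decide which reads can be assigned to a gene. The seed, bases 2 to 8, is in capitals, and sequences are from RefSeq on GRCm38.p6, the assembly that mm10 stands for, where all 4 genes were matched.
miR-29a-3p: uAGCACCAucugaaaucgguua
miR-29b-3p: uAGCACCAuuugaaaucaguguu
miR-29c-3p: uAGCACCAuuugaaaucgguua
All 3 strands share 1 seed, and of 1674 distinct mature sequences in the RefSeq table no others had it (0.179% with it). Counted from the 5′ end, miR-29a-3p and miR-29c-3p differ by C10U alone over 22 bases. From miR-29c-3p to miR-29b-3p the changes are G18A, U21G and A22U. miR-29b-3p ends in AGUGUU, a tail known from work on human miR-29b to direct it to the nucleus. AGUGUU is present in 12 of the 1674 sequences (0.717%), searched on the mature strand only, and ends 2 of them.

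The 5p strands come from the other arm of each hairpin and differ more between the genes. They are shown with bases 2 to 8 in capitals, since they are the mature strands that tell the miR-29b copies apart.
miR-29a-5p: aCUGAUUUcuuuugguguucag
miR-29b-1-5p: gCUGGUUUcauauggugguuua
miR-29b-2-5p: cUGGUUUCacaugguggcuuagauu
miR-29c-5p: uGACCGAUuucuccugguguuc
No 2 of these strands share the same bases 2 to 8. miR-29b-1-5p lies whole in 1 microRNA hairpin, its own, and its closest match in the Mir29b-2 hairpin has 2 mismatches. miR-29b-3p lies whole in 2 hairpins, Mir29b-1 and Mir29b-2. miR-29a-3p and miR-29c-3p each lie whole in 1 hairpin, and the closest match of each in the other has 1 mismatch.

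The chromosome 6 cluster is on the minus strand of mm10. Mir29a (ENSMUSG00000065610.1) lies from 31062660 to 31062747 and overlaps no other annotated gene. Mir29b-1 (ENSMUSG00000065604.2) lies 275 bases from it, from 31063023 to 31063093, and its last 2 bases by coordinate overlap an exon of the lincRNA Gm27019. The hairpins of this cluster show the arrangement of the arms, with the 3p strand in capitals.
Mir29a: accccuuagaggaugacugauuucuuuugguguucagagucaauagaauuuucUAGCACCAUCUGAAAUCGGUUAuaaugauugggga
Mir29b-1: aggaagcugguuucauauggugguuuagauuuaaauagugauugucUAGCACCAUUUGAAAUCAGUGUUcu
The chromosome 1 cluster is on the plus strand. Mir29b-2 (ENSMUSG00000065412.3) lies from 195037040 to 195037120 and Mir29c (ENSMUSG00000065548.1) from 195037547 to 195037634, with 426 bases between them. Both lie in an exon of the noncoding host A330023F24Rik, in a transcript annotated as a retained intron. On the opposite strand both lie in a UTR of Cd46, a complement regulator.

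The longest run shared by the Mir29b hairpins is 25 bases, which covers the whole 3p strand and the bases just before it.
Shared by Mir29b-1 and Mir29b-2: ucuagcaccauuugaaaucaguguu
Mir29b-1 and Mir29c share a run of 22 bases that starts 5 bases before the 3p strand in each, and Mir29b-2 and Mir29c share 19. Mir29a shares at most 14 bases with any of the others. Cut into windows of 22 bases, the Mir29a hairpin had 0 of 67 windows in another microRNA hairpin, Mir29c 1 of 67, Mir29b-2 4 of 60 and Mir29b-1 5 of 50. Only microRNA hairpins were searched, not the whole genome.

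**Figure D1:**
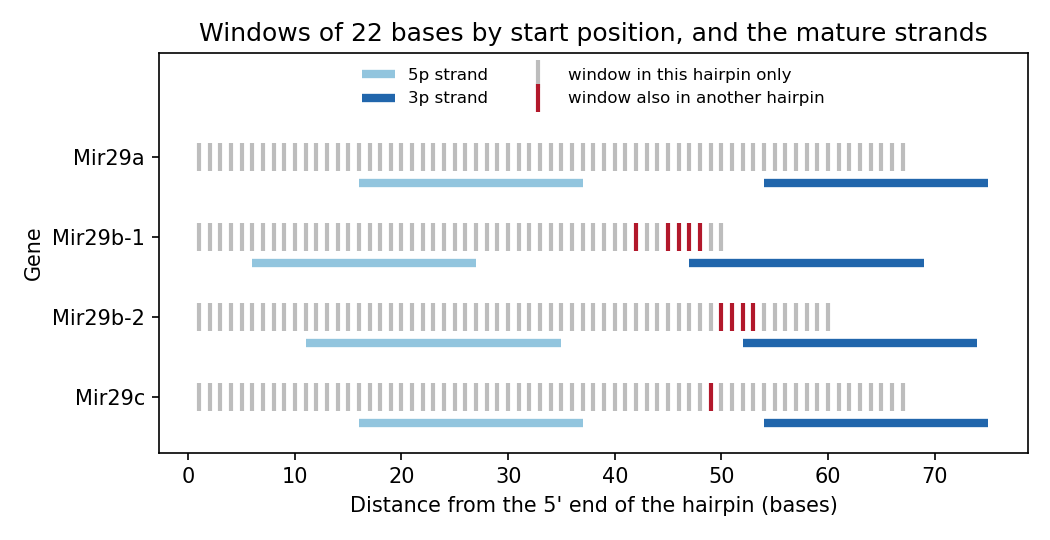
Start positions of all windows of 22 bases along each hairpin (x axis, bases from the 5′ end), in red where the window also occurs in another microRNA hairpin, with the 5p and 3p strands as bars. The red windows start close to the first base of the 3p strand, from a few bases before it to the base after it: 5 in Mir29b-1, 4 in Mir29b-2, 1 in Mir29c and 0 in Mir29a.

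The files keep reads that aligned to several places on a line of their own, outside all genes, and these made up 60.2% of replicate 1 and 63.2% of replicate 2. Reads on the strand of a microRNA gene (sense reads) numbered 1157420 and 1193393. Of 2202 genes, 321 were detected, meaning a level of at least 2 CPM (counts for each 1000000 sense reads) in both libraries. Counting error alone lets a gene with no read have up to 2.59 CPM of reads with a single place in the first library and 2.51 CPM in the second. This sets no limit for a gene whose mature strand is found at several places. The 9 skeletal muscle markers were all read in at least 1 library and held 3.87% and 3.73% of the sense reads, most of them Mir206. The Mir1a and Mir133 genes among them have at least 20 bases in a row in common with another microRNA gene, so neither that share nor the place of Mir206 covers reads with several places. Markers of other cells in the tissue were present too, led by endothelial Mir126a and smooth muscle Mir143.

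All 4 Mir29 genes were detected, and Mir29a was by far the main one. Mir29a had 13547 reads in replicate 1 and 19843 in replicate 2, or 11705 and 16627 CPM, a mean of 14166 ± 3481 CPM (SD, n = 2), which placed it 18th of all microRNA genes by the reads counted in genes. Mir29c had 1376 and 2436 reads, or 1189 and 2041 CPM, a mean of 1615 ± 603 CPM, at rank 45. Both values of Mir29a were above both values of Mir29c.

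Mir29b-1 had 87 and 89 reads, or 75.2 and 74.6 CPM, a mean of 74.9 ± 0.417 CPM (SD, n = 2), at rank 140. Mir29b-2 had 28 and 27 reads, or 24.2 and 22.6 CPM, a mean of 23.4 ± 1.11 CPM, at rank 203. The order Mir29a, Mir29c, Mir29b-1, Mir29b-2 was therefore the same in both libraries, and no neighbours in it overlapped. With so few reads for the miR-29b copies, an SD over 2 values can fall below counting error. It does not give the precision of their levels. CPM is not corrected for length, and the 3p strands are 22 or 23 bases long. The counts are per gene and do not separate the 3p from the 5p strand.

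**Figure D2:**
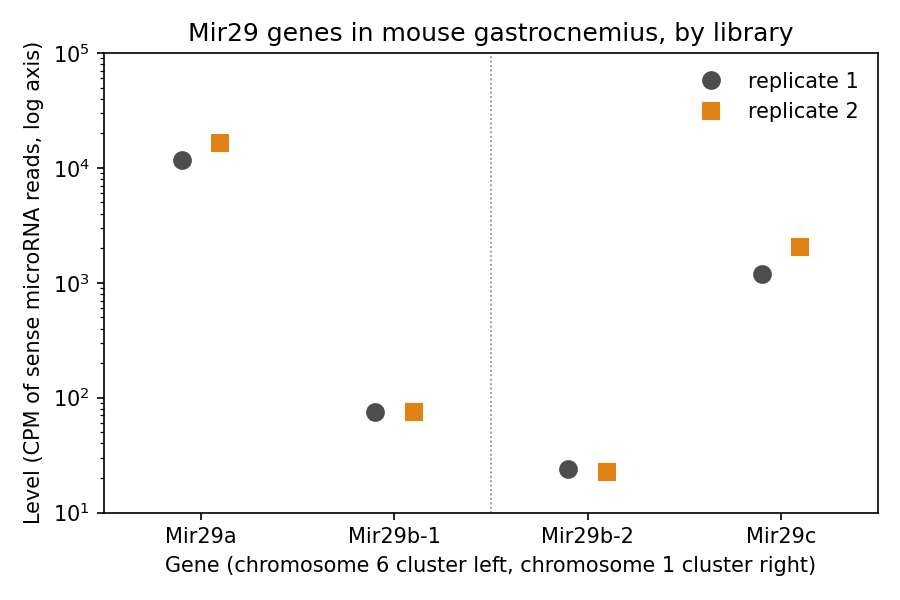
Level of each Mir29 gene (CPM, log axis), with a circle for replicate 1 and a square for replicate 2 and the clusters either side of the dotted line. Mir29a sits at 11705 and 16627 CPM and Mir29c at 1189 and 2041, while the miR-29b copies sit between 22.6 and 75.2.

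As a family the 4 genes took 1.30% of the sense reads in replicate 1 (exact Clopper-Pearson 95% interval 1.28 to 1.32) and 1.88% in replicate 2 (1.85 to 1.90). These and all later intervals cover counting error only, because PCR copies were not marked and reads cannot be taken as separate molecules. Within the family Mir29a held 90.1% and 88.6% of the reads counted in genes, Mir29c 9.15% and 10.9%, and the miR-29b copies together 0.765% and 0.518%. Reads with several places, where those of the whole miR-29b-3p strand fall, are not in these shares. All family reads were on the strand of the gene: the opposite strand had 0 reads at each of the 4 genes in both libraries, Mir29b-2 and Mir29c opposite Cd46 included.

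The clusters were then compared. The chromosome 6 cluster had 13634 reads in replicate 1 and 19932 in replicate 2, and the chromosome 1 cluster 1404 and 2463. Chromosome 6 exceeded chromosome 1 by 9.71-fold in replicate 1 (exact binomial 95% interval 9.19 to 10.3) and 8.09-fold in replicate 2 (7.76 to 8.44), a mean of 8.90 ± 1.14 (SD, n = 2). In the reads counted in genes, the cluster ratio was set by the genes that are not miR-29b: Mir29a over Mir29c was 9.85 (9.31 to 10.4) and 8.15 (7.81 to 8.50). The whole miR-29b-3p strand lies in both clusters, and reads with several places are in no gene, so both cluster sums leave such reads out. The intervals of the libraries did not overlap for either ratio. Beyond counting error, Mir29c thus took a larger part of the counted family reads in replicate 2.

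The copies of miR-29b gave a smaller ratio between the clusters. Mir29b-1 over Mir29b-2 was 3.11 in replicate 1 (exact binomial 95% interval 2.01 to 4.94) and 3.30 in replicate 2 (2.12 to 5.28), and these intervals overlap each other and lie below those of Mir29a over Mir29c. Within the chromosome 6 cluster Mir29a exceeded Mir29b-1 by 156-fold and 223-fold. Within the chromosome 1 cluster Mir29c exceeded Mir29b-2 by 49.1-fold and 90.2-fold. The whole miR-29b-3p strand printed above lies in both copies, and reads with several places are outside all gene counts, so the level of miR-29b itself cannot be read from these counts. How many of the reads aligned to several places came from miR-29b was not tested.

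For comparison, all neighbouring pairs of detected microRNA genes on 1 strand with at most 1000 bases between them were listed, a description chosen after the values were seen. Among 48 such pairs the partners differed in mean CPM by a median of 4.84-fold. Mir29a with Mir29b-1 differed most, at 189-fold, and Mir29b-2 with Mir29c ranked 5th, at 69.0-fold. Of the other 3 pairs in the first 5, Mir99a with Mirlet7c-1 (167-fold) and Mirlet7c-2 with Mirlet7b (76.1-fold) also include a gene whose mature sequence another place holds, and Mir503 with Mir322 (82.2-fold) does not. Pairs that include such a gene also ranked low, down to 45th of 48, and the 14 of them had a median of 5.71-fold against 4.27-fold for the 34 others.

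**Figure D3:**
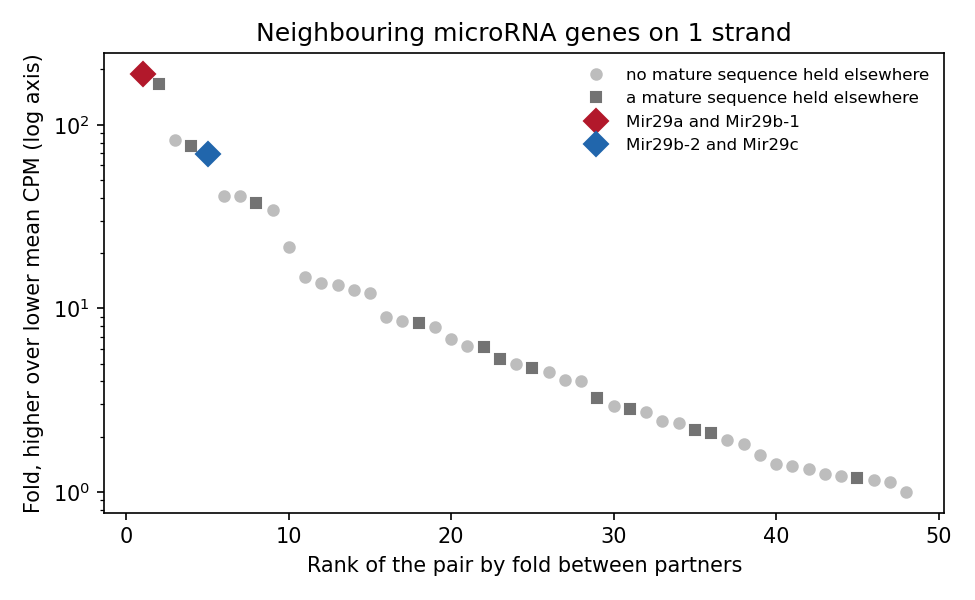
Fold between the partners of 48 neighbouring microRNA gene pairs (y axis, log), in order of that fold, with squares for pairs in which a gene has a mature sequence held at another place. The Mir29a and Mir29b-1 pair is first at 189-fold and the Mir29b-2 and Mir29c pair 5th at 69.0-fold.

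In the RefSeq table, 342 of 1250 genes with a mature sequence have one that another place also holds, and 41 of these 342 were detected. Ordered by level among those 41, Mir29b-1 was 25th and Mir29b-2 32nd, and the median was 129 CPM. The highest was Mirlet7f-2, at 5324 ± 906 CPM (SD, n = 2). Of the 908 genes without such a sequence 249 were detected (27.4%, against 12.0% of the 342). The median of these 249 genes was 40.9 CPM, between the levels of Mir29b-1 and Mir29b-2. Both medians cover detected genes only. All 908 genes held 72.4% of the sense reads in replicate 1 and 76.5% in replicate 2, against 1.81% and 1.34% for the 342. The rest of the sense reads were in genes with no mature sequence in the RefSeq table, which are in neither class. RefSeq entries used here are not complete, so the 342 may be too few.

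The detected genes nearest to Mir29a in level, by distance in log2(CPM + 1) over the 2 libraries, were Mir30a at 15382 ± 287 CPM (SD, n = 2; distance 0.43), Mir149 at 16241 ± 990 CPM (0.54) and Mir10b at 12527 ± 2164 CPM (0.65). Nearest to Mir29c were Mir28a at 1418 ± 267 CPM (0.35), Mir15a at 1503 ± 903 CPM (0.46) and Mir615 at 1352 ± 59.8 CPM (0.57).

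Mir29a and Mir29c were higher in replicate 2 than in replicate 1, and the miR-29b copies did not pass the test. After TMM scaling, the reads of every detected gene were compared by an exact conditional binomial test (two-sided), with Benjamini-Hochberg adjustment over 321 genes. The test compares 2 libraries, not conditions. Mir29a was 1.76-fold higher in replicate 2 (95% interval 1.72 to 1.80), with an exact binomial adjusted p whose log10 is -568, and Mir29c was 2.12-fold higher (1.99 to 2.27; exact binomial adjusted p = 2.7e-114). Such p-values allow for counting error alone. Of all detected genes 37.4% passed, and 18.7% passed as higher in replicate 2, beside 2 of the 4 Mir29 genes.

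The ratio of Mir29b-1 was 1.23-fold (95% interval 0.903 to 1.67; exact binomial adjusted p = 0.35) and that of Mir29b-2 1.16-fold (0.656 to 2.04; exact binomial adjusted p = 0.75). Scaled by total counts alone, a change that shifted the median log2 ratio over the detected genes by -0.29, these ratios were 0.992 and 0.935, so the miR-29b copies have no settled direction. On that scale Mir29a (1.42-fold) and Mir29c (1.72-fold) still passed as higher in replicate 2, where 46.4% of all detected genes passed in either direction and 10.9% as higher in replicate 2. In order of log2 ratio from the highest of 321 genes, Mir29c was 21st, Mir29a 35th, Mir29b-1 94th and Mir29b-2 117th. The median log2 ratio of the 4 genes was 0.55, beside -0.013 for all 321.

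Against the spread of all detected genes, whose log2 ratios ran from -1.16 at the 5th percentile to 1.23 at the 95th, Mir29a at 0.81 and Mir29c at 1.09 lay inside that range. Only 167 of the 321 genes had at least 100 reads over both libraries. The range thus includes genes with more counting error than Mir29a and Mir29c, and genes of like depth were not compared apart. edgeR's common coefficient of variation over the 2 libraries was 33.8%. The dispersion behind it was estimated with both libraries as 1 group, so the differences under test also set it. Not passing at this dispersion therefore does not show that a gene was equal in both libraries. With an edgeR exact test at that dispersion, 5 of 321 genes passed (1.56%) and 0 of the 4 Mir29 genes (adjusted p = 1 for each), none of which had an unadjusted p under 0.05, as 11 of the 321 genes had. At a fixed dispersion of 0.01 the edgeR exact test passed 53 genes (16.5%), Mir29a (edgeR adjusted p = 0.0011) and Mir29c (edgeR adjusted p = 7.9e-06) among them. In absolute log2 ratio Mir29c ranked 44th of 321 and Mir29a 74th.

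**Figure D4:**
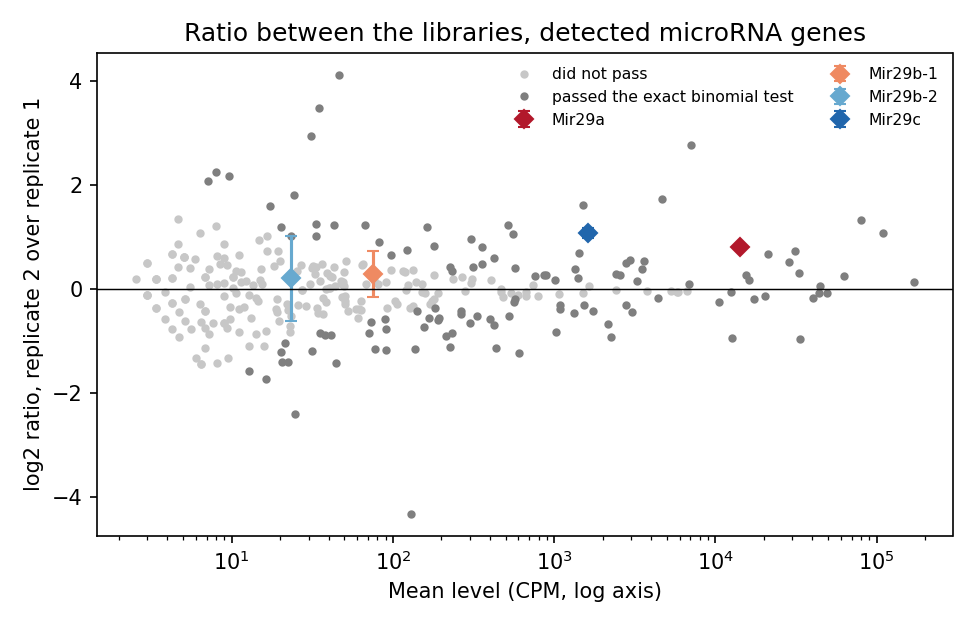
log2 ratio of replicate 2 over replicate 1 after TMM scaling (y axis) against mean level (CPM, log axis) for the 321 detected genes, dark where the exact binomial test passed, with the Mir29 genes as diamonds, drawn without a pseudocount, with exact 95% intervals for counting error. Mir29a and Mir29c lie above 0 with narrow intervals, and the intervals of Mir29b-1 and Mir29b-2 span 0.

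Summed over the clusters, chromosome 6 was 1.75-fold higher in replicate 2 (95% interval 1.72 to 1.79) and chromosome 1 2.10-fold (1.97 to 2.25), and with total counts only 1.42-fold and 1.70-fold. The shares of several marker lists of other cell types also differed between the libraries. Endothelial Mir126a went from 8.08% to 13.8% of sense reads (2.11-fold higher in replicate 2 after TMM scaling), while the 2 smooth muscle markers went from 5.08% to 4.21%, the 6 fibroblast markers from 1.92% to 1.56% and the 4 leukocyte markers from 0.318% to 0.225%. After TMM scaling the summed reads of replicate 2 were 1.03 times those of replicate 1 for the smooth muscle list, 1.00 times for the fibroblast list and 0.875 times for the leukocyte list. Members of each list differed: Mir143 was at 1.04 times and Mir145a at 0.750 times. Detected fibroblast markers ran from 0.450 times (Mir199a-2, 8 and 3 reads) to 1.22 times (Mir10a). Mir10b, with 16270 and 13124 reads and so most of that list, was at 0.968 times. The share and sum of the fibroblast list therefore mainly follow Mir10b and do not show how much fibroblast RNA was present. Leukocyte markers ran from 0.763 times (Mir223) to 1.39 times (Mir142). The 2 erythroid markers went opposite ways, Mir144 from 9 to 65 reads (8.66-fold higher in replicate 2 after TMM scaling; edgeR adjusted p = 0.033 at the common dispersion) and Mir451a from 180 to 117 reads, which did not pass (exact binomial adjusted p = 0.092). The 10 nerve markers went from 0.0402% to 0.0499%, with 5 of them, the Mir124a genes, Mir9-2 and Mir9-3, without a read. All 10 have at least 20 bases in a row in common with another microRNA gene, so neither these zeros nor the share shows how much nerve RNA was present. In the fibroblast list Mir199a-1 had 1 and 0 reads. The part of these cells in the Mir29 difference was not tested.

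The family was set beside other microRNAs known for acting on matrix or fibrosis. Of the list linked to more matrix, 5 of 6 genes were detected, 0 passed as higher and 1 passed as lower in replicate 2, with a median log2 ratio of -0.013, which is also that of all 321 genes. Of those 321, 18.7% passed as lower in replicate 2. That gene was Mir21a, a microRNA known to promote fibrosis, at 17726 CPM in replicate 1 and 7511 CPM in replicate 2 (1.91-fold higher in replicate 1 after TMM scaling), and at the common dispersion it did not pass (edgeR adjusted p = 1). Mir21a was above Mir29a in replicate 1 and below it in replicate 2. Mir214, which comes from the same noncoding RNA as Mir199a-2, held 2701 and 2164 CPM and did not pass (exact binomial adjusted p = 0.86), and Mir192 held 30.2 and 32.7 CPM. Mir199a-1, Mir199a-2 and Mir199b had at most 12 reads in a library, and each has at least 20 bases in a row in common with another microRNA gene.

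Of the list linked to less matrix, 8 of 10 genes were detected, 0 passed as higher and 2 as lower in replicate 2, beside 18.7% of all detected genes as lower, with a median log2 ratio of -0.36. The first was Mir26a-1, known for dampening TGF-beta signalling, with 289 and 11 reads (21.9-fold lower in replicate 2 after TMM scaling), which also passed at the common dispersion (edgeR adjusted p = 0.00012). The other was Mir133a-1, a muscle microRNA known to repress the matrix factor Ctgf, with 24 and 6 reads (3.33-fold lower in replicate 2 after TMM scaling, exact binomial adjusted p = 0.015). With total counts only, 7 of the 8 passed as lower, as did 2 of the 5 linked to more matrix, on a scale where 35.5% of all detected genes passed as lower and their median log2 ratio was -0.30. Mir101b held 772 and 571 CPM and Mir30c-2, another microRNA known to repress Ctgf, 613 and 472 CPM, both under Mir29c in each library. Mir101a held 162 and 142 CPM, Mir26a-2 162 and 105 CPM, and Mir30c-1 78.6 and 47.8 CPM. Mir133b had 27 and 10 reads, Mir133a-2 5 and 0, and Mir200b 1 and 7. Apart from Mir200b, each of these 10 genes has at least 20 bases in a row in common with another microRNA gene, so its level is uncertain.

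As shares of the sense reads, the list linked to more matrix went from 2.05% to 0.972%, the list linked to less matrix from 0.209% to 0.137%, and the Mir29 family from 1.30% to 1.88%. In reads counted in genes, the family thus had 0.635 times the reads of the list linked to more matrix in replicate 1 and 1.93 times in replicate 2. Against the list linked to less matrix it had 6.22 and 13.7 times. A mature sequence held at another place occurs in 3 of the 6 and 5 of the 10 listed genes. Reads with several places are in no gene, so these multiples do not compare the amounts of the mature microRNAs. Mir21a had most of the reads of the first list in both libraries, 20516 and 8964. With 1 library on each side, no test across samples of these ratios could be made.

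**Figure D5:**
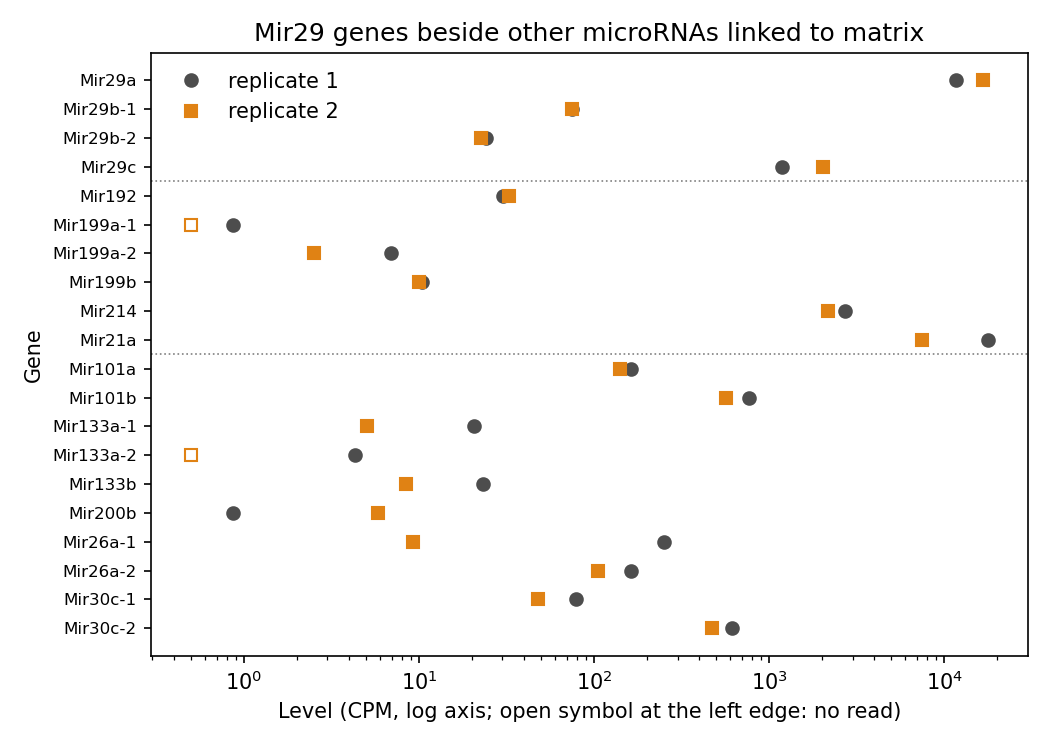
Level (CPM, log axis) of the 4 Mir29 genes (top), 6 microRNAs linked to more matrix (middle) and 10 linked to less matrix (bottom), drawn as a circle in replicate 1 and a square in replicate 2, with open symbols at the left edge for no read. Mir29a and Mir21a change places between the libraries, at 11705 and 17726 CPM in replicate 1 and 16627 and 7511 CPM in replicate 2.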

How the data were processed

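The values are whole-number read counts per microRNA gene in 3 columns (both strands, strand of the gene, opposite strand), not normalized, as deposited by the authors. Counts were made on mm10 with GENCODE M21, per the labels and the descriptions deposited with the files. Which aligner was used is not given in the sources used here. Read totals (4 lines) were kept out of library sizes. Gene names, positions and hairpins came from GENCODE M21 (2202 of 2202 identifiers matched), mature sequences from RefSeq. Levels are CPM over the third column's sense-strand total. edgeR 4.0.16 in R 4.3.3 gave TMM factors, dispersions and its exact test, and DESeq2 1.42.0 gave alternative size factors. The exact conditional binomial test, called at an adjusted p of 0.05, used Python 3.11.15 with scipy 1.17.1. log2 ratios had a pseudocount of 1 CPM. The steps were tested on simulated data with set differences in some genes and counting error alone. The simulation held no other variation between libraries, so it cannot show how the exact binomial test behaves under such variation. Members and lists were chosen with earlier results of these data known. The genes named were the members, the 3 nearest in level to Mir29a and to Mir29c, the matrix lists and cell type markers; others are said to be chosen later.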

Additional observations from a re-analysis of the deposited data

How the results depend on the processing

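The family share of 1.59% ± 0.408 (SD, n = 2) became 2.27% with the column of both strands and 0.292% over all reads of a library. This was because the denominator changed. With the most abundant gene left out of the denominator the share was 1.91%, within 1 SD. In 2 other settings the members changed as well, so their shares are not like for like. Without genes sharing a run of 20 bases, 1.90% was Mir29a alone, whose level moved by more than 1 SD, from 14166 to 18992.5 CPM. Without genes with a mature sequence held elsewhere, 1.60% was Mir29a and Mir29c. The share of all 4 genes was 1.88% without replicate 1 and 1.30% without replicate 2. Each of 2 values always lies within 1 SD of their mean, so leaving out a replicate could not test stability. The cluster ratio of 8.90 was 9.71 and 8.09 with 1 replicate alone, and unchanged with both strands. Without genes sharing a run of 20 bases only Mir29a was left, so no cluster ratio could be made and 1 member passed. The 120 genes that passed became 53 when edgeR's exact test used 0.01 as the dispersion and 5 at the common dispersion, where 0 members passed. With total counts only the log2 ratios of Mir29b-1 and Mir29b-2 were -0.011 and -0.093, and of the 149 genes that passed 35 were higher and 114 lower in replicate 2, against 60 and 60. The log2 ratio of Mir29a lay between 0.51 and 0.86 and that of Mir29c between 0.78 and 1.13 over all settings. Leaving out genes with a mature sequence held elsewhere, added after seeing the data, kept 2 members passing. It removed only Mir29b-1 and Mir29b-2, which had not passed, and left the counts of Mir29a and Mir29c as they were. That setting therefore could not test the 2 calls. No paired analysis was possible because there is 1 group. With 28 and 27 reads, the ratio of Mir29b-2 has a wide interval.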
